A study of Mus musculus with 14 samples.

Results

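Transcripts of 10 secreted matrix genes were followed in C2C12 myoblasts during differentiation with and without knockdown of the zinc-finger transcription factor Klf5. They were the small leucine-rich proteoglycan genes Dcn (decorin), Bgn (biglycan), Lum (lumican) and Fmod (fibromodulin), the fibronectin gene Fn1, and the matricellular genes Postn (periostin), Sparc (osteonectin), Thbs1 and Thbs2 (thrombospondins) and Tnc (tenascin C). They were chosen by gene name from a table of 24016 transcripts, 1 per gene, and all 10 were found in it. Counts and tests were limited to transcripts whose values averaged 1 or more across the 8 libraries. Of all transcripts 14312 passed this filter, and of the 10 genes 9 did, all but Fmod.

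C2C12 is a mouse myoblast line that was kept in growth medium with 10% fetal bovine serum and was turned into myotubes in medium with 2% horse serum. The cells were transfected with control siRNA (siCtrl) or a pool of siRNAs against Klf5 (siKlf5), and poly(A) RNA was sequenced on days 0, 1, 2 and 3 of differentiation. Each siRNA and day is represented by 1 library, which gives 8 libraries and no replicate of any condition. The values are FPKM as deposited, which are per transcript length but on a scale larger than usual FPKM. At most 3 reads were kept per position. This limit can lower the values of abundant transcripts, more so in deeper libraries, and its effect on comparisons between genes or libraries was not tested. The siCtrl libraries held 7850497 to 20301506 reads and the siKlf5 libraries 8119452 to 11808641, and siCtrl on day 2 was the deepest library.

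The matrix around muscle fibres is a mesh of collagen with proteoglycans bound to it. Small leucine-rich proteoglycans have a protein core of leucine-rich repeats that bind collagen fibrils and set their spacing and width. Decorin and biglycan carry chondroitin or dermatan sulfate chains and also bind growth factors such as TGF-beta, whereas lumican and fibromodulin carry keratan sulfate. Fibronectin is a large glycoprotein that cells assemble into fibrils through integrins. Matricellular proteins are secreted into the matrix but act mainly as signals to cells, and are known from development, wound repair and regenerating muscle.

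Klf5, the gene targeted by the siRNA, was checked first. In siCtrl cells its value was 223.8, 381.1, 614.4 and 933.1 on days 0, 1, 2 and 3, and in siKlf5 cells it was 35.1, 159.6, 192.1 and 211.4. It was lower in the siKlf5 library on every day, with log2 ratios between -2.67 and -1.25. The summed value of the muscle differentiation markers rose from 3440.1 on day 0 to 18507 on day 3 in siCtrl cells and from 2867 to 17317 in siKlf5 cells. Both series thus gained muscle transcripts. These sums weigh abundant genes such as Acta1 and Tnnt3 most and do not show that the series were alike gene by gene. On day 3, 1 of the 10 markers past the filter was lower in siKlf5 cells by more than 1.5-fold and 0 were higher. That marker was Myog, at 2292.9 in siCtrl and 1386.5 in siKlf5 cells (siRNA difference over the 4 days -0.46 ± 0.10, limma adjusted p = 0.228). Of the fibroblast markers, 5 of 7 passed the filter on low values, with sums of 91.1 to 243.4 in siCtrl and 59.8 to 202.3 in siKlf5 libraries and with Tcf21 at 0 in all. Markers of adipocytes summed to at most 4.74, markers of endothelial cells to at most 5.36, and those of macrophages and leukocytes to at most 26.0. The osteoblast markers summed to 52.2 to 85.2, mostly from Runx2, with Ibsp at 0. In bulk RNA, fewer cells of a type and less RNA per cell cannot be told apart.

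The promoters of 4 of the genes are shown. Lum, Thbs1 and Bgn were the genes whose values correlated most closely with those of Dcn over the 8 libraries, at 0.96, 0.95 and 0.92, and Thbs2 is the close relative of Thbs1 that did not share its rise. Each window runs from 250 bases before to 50 bases after the transcript start in the deposited table. The sequences are from the mm9 reference genome, 5′ to 3′ on the strand of the gene. The Lum window lies at chr10:97027885-97028184 (plus strand), Bgn at chrX:70728724-70729023 (plus), Thbs1 at chr2:117937408-117937707 (plus) and Thbs2 at chr17:14831220-14831519 (minus strand). Capitals mark CCGCCC or CCACCC on either strand, the core letters of the GC box and the CACCC box that Krüppel-like and Sp1 factors bind.
Lum promoter: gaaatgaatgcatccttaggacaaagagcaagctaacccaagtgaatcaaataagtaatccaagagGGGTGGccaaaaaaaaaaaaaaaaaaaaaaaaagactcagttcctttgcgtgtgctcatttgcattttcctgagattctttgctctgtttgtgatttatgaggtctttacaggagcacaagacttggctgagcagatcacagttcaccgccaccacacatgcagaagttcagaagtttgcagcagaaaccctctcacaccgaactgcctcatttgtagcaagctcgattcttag
Bgn promoter: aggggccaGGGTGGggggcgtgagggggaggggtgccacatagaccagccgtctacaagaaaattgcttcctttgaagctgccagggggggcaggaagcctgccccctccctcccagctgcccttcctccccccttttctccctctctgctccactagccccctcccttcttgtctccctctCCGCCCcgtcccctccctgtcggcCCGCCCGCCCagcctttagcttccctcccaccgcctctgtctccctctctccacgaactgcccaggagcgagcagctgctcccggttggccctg
Thbs1 promoter: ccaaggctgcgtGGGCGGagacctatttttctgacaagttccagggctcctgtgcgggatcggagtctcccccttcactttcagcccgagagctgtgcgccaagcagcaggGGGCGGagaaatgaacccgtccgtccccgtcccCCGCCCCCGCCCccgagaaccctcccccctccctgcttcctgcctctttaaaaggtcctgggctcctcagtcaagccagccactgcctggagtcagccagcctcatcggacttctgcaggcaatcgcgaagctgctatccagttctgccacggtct
Thbs2 promoter: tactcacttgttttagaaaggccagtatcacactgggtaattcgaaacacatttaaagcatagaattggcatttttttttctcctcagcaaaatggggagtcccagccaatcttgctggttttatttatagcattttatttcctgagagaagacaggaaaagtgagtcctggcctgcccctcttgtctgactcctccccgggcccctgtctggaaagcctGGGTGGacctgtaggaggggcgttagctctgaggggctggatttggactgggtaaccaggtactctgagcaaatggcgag

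The windows differed in these letters. Thbs1 held CCGCCC at 4 positions and Bgn at 3, of which a pair overlaps, while Lum and Thbs2 did not hold it. CCACCC was found at 1 position each in Bgn, Lum and Thbs2. Of 23950 promoter windows of the same length in the table, 44.9% held CCGCCC and 32.6% held CCACCC. The shares were 61.1% and 36.2% among the 14309 windows of transcripts that passed the filter. G and C made up 41.7% of the Lum window, 48.3% of Thbs2, 63.3% of Thbs1 and 67.3% of Bgn, against a median of 56% over all windows. The median was 60.7% among windows of transcripts that passed the filter. Besides these, the E-box CANNTG, the letters that MyoD binds, was found in Bgn, Lum and Thbs2 but not in Thbs1. It was held by 68.9% of all windows and by 63.2% of those that passed the filter. All motifs were searched on both strands, and so was the core motif of Mef2, which the windows shown lacked. A match is a run of letters and not a measured site, and binding was not analysed here.

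The first question was how these transcripts changed as myoblasts became myotubes. The proteoglycans Dcn and Bgn and the thrombospondin Thbs1 rose in both series, Lum appeared from 0, and Postn rose after a low on day 1. Fn1 and Sparc were abundant throughout, and Thbs2 and Tnc were highest on day 1 in siCtrl cells. In siCtrl cells 5 of the 9 genes were more than 2-fold higher on day 3 than on day 0 and 0 were lower, beside 15.5% higher and 12.7% lower of all transcripts. In siKlf5 cells the same 5 genes, Bgn, Dcn, Lum, Postn and Thbs1, were more than 2-fold higher and 0 were lower, beside 14.9% and 12.4%. The median log2 change of the 9 genes was 1.19 in siCtrl and 1.64 in siKlf5 cells, whereas that of all transcripts was -0.07 and -0.08. Lum entered these medians with a fold that depends on the pseudocount. Setting it against a floor of 3 reads on day 0 leaves them as they are. At the lower 95% bound of Lum for counting error, 1.08 in siCtrl and -1.24 in siKlf5 cells, both medians would be lower.

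**Figure D1:**
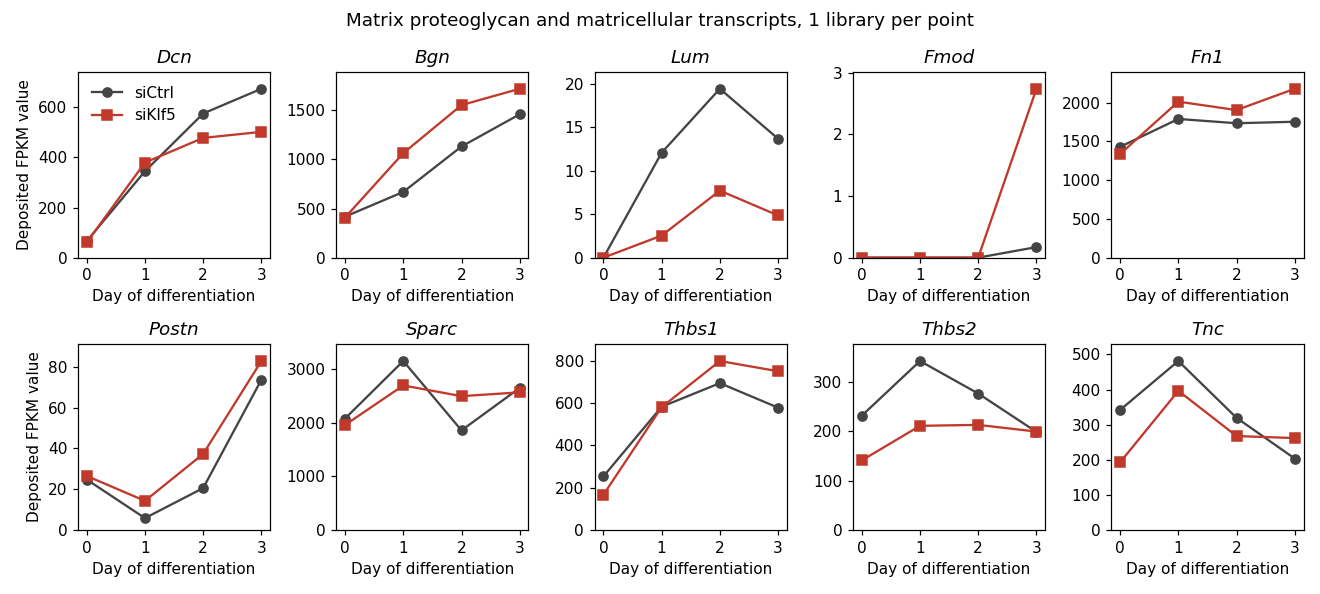
Deposited FPKM value (vertical axis, from 0, with its own scale in each panel) against day of differentiation for the 10 genes, in siCtrl (grey circles) and siKlf5 (red squares) cells, with 1 library per point. Dcn reached 674.5 in siCtrl and 502.3 in siKlf5 cells on day 3, and Bgn reached 1460.2 and 1719.9.

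Limma was fitted to log2(value + 0.1) in all 8 libraries with a term for the siRNA and a term for each day, so that the siCtrl and siKlf5 series stood in for replicates of a day, with 3 residual degrees of freedom. On day 3 against day 0, 6 of the 9 genes were called higher at an adjusted p under 0.05 and 0 lower, where 12.8% of all transcripts were called higher and 17.6% lower. Of the 3 not called, none had an unadjusted p under 0.05. Over the days together 5 of the 9 were called, Fn1 not being among them, where 25.1% of all transcripts were. Without the filter on low values 2 of the 9 were called on day 3, and 1 for any day.

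Decorin transcripts showed the steepest rise of the abundant genes. Dcn (NM_001190451, chr10:96942134-96980796) had values of 65.8, 345.1, 575.5 and 674.5 on days 0, 1, 2 and 3 in siCtrl cells and 60.5, 379.7, 478.2 and 502.3 in siKlf5 cells. Every library of days 1 to 3 was above both libraries of day 0. The fitted difference of day 3 from day 0 was 3.20 ± 0.14 on the log2 scale (SE, limma adjusted p = 5.37e-06), or 9.21-fold. Among the 14312 transcripts its rank by value rose from 7558 to 618 in siCtrl and from 7853 to 929 in siKlf5 cells. Over the same days limma called 3 of the 5 fibroblast markers and 8 of the 10 muscle markers higher on day 3 and 6 of 6 markers of proliferating cells lower, and their part in the rise of Dcn was not tested. Most of the rise fell between days 0 and 1, when the log2 change was 2.39 (95% interval 1.89 to 2.95) in siCtrl and 2.65 (2.14 to 3.26) in siKlf5 cells. These intervals are exact (Clopper-Pearson) on reads divided by 6 and, like all the intervals given, cover counting error only.

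Biglycan, the closest relative of decorin in this set, was already abundant in myoblasts. Bgn (NM_007542, chrX:70728974-70741275) had values of 417.9, 669.1, 1132 and 1460.2 in siCtrl cells and 408.5, 1064, 1554 and 1719.9 in siKlf5 cells on days 0 to 3. It rose from each day to the next in both series, and its fitted difference of day 3 from day 0 was 1.94 ± 0.16 (limma adjusted p = 1.25e-04). The ratio of Bgn to Dcn values fell from 6.35 on day 0 to 2.16 on day 3 in siCtrl cells and from 6.75 to 3.42 in siKlf5 cells. It was higher in siKlf5 cells on each of the 4 days, which was not tested.

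Lumican transcripts were listed at 0 in both libraries of day 0. Lum (NM_008524, chr10:97028135-97035337) then had values of 12.1, 19.4 and 13.7 on days 1, 2 and 3 in siCtrl cells, from 32, 135 and 58 reads, and 2.54, 7.70 and 4.86 in siKlf5 cells, from 7, 31 and 18 reads. On day 3 the value was 18.6 times a floor of 3 reads on day 0 in siCtrl cells and 5.99 times in siKlf5 cells. These multiples leave out counting error and are not bounds. The lower 95% counting bound of the log2 change was 1.08 in siCtrl and -1.24 in siKlf5 cells, so the siKlf5 interval includes 0. Limma called the difference (adjusted p = 2.08e-03), but its fitted size depends on the pseudocount and is not a bound, and without the filter the adjusted p was 0.0776. Lum passed the filter through days 1 to 3. On chromosome 10 Lum starts 47338 bases after the end of Dcn on the same strand, and the next genes of this family, Kera and Epyc, were at 0 apart from a value of 0.601 for Epyc in 1 library. Fibromodulin, Fmod (NM_021355, chr1:135934092-135944854), was at 0 in 6 libraries and had 1 read in siCtrl and 14 reads in siKlf5 cells on day 3, with values of 0.171 and 2.74. It was below the filter and stands in none of the counts of 9 genes, and with no filter limma did not call it for the siRNA (adjusted p = 0.823) or for day 3 (adjusted p = 0.217).

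The fibronectin and osteonectin transcripts were the most abundant of the set in every library. Fn1 (NM_001276411, chr1:71632047-71699808) had values of 1429.7, 1789, 1734 and 1753 in siCtrl and 1338, 2013, 1904 and 2179 in siKlf5 cells. All 6 libraries of days 1 to 3 were above both of day 0, and day 3 exceeded day 0 by 0.50 ± 0.13 on the log2 scale (limma adjusted p = 0.0208). This call was lost without the filter (adjusted p = 0.157), without the eBayes trend (0.0861) and without day 1 or day 2 (0.0521 and 0.0533). Sparc (NM_009242, chr11:55207661-55233582), which encodes a collagen-binding calcium-binding protein, had values of 2083, 3158, 1861 and 2655 in siCtrl and 1963, 2701, 2501 and 2573 in siKlf5 cells. Its highest value was on day 1 in both series, and day 3 differed from day 0 by 0.37 ± 0.17 (limma adjusted p = 0.132, and 0.0448 without day 2, where it was called). The day 1 library was the shallowest of each series and siCtrl on day 2 the deepest. The part of depth and of the limit on reads per position in the courses of Fn1 and Sparc was not tested. Sparc ranked between 34 and 109 among the 14312 transcripts and Fn1 between 53 and 223. Together they made up 54.2% to 76.8% of the summed value of the 10 genes.

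Among the matricellular genes the paired thrombospondins parted. Thbs1 (NM_011580, chr2:117937658-117952869), whose product activates latent TGF-beta and inhibits angiogenesis, had values of 253.2, 582.7, 694.5 and 578.5 in siCtrl and 166.3, 580.7, 799.2 and 750.8 in siKlf5 cells. It was highest on day 2 in both series and exceeded day 0 on day 3 by 1.68 ± 0.21 (limma adjusted p = 8.36e-04, and 0.0546 without the filter). Thbs2 (NM_011581, chr17:14802507-14831269), which encodes a related inhibitor of angiogenesis, had values of 232.1, 343.3, 277.2 and 199.2 in siCtrl and 141.3, 211.5, 213.4 and 199.8 in siKlf5 cells. The siCtrl series ended below where it began and the siKlf5 series above, and the fitted difference on day 3 was 0.14 ± 0.18 (limma adjusted p = 0.601). The ratio of Thbs1 to Thbs2 rose from 1.09 to 2.90 in siCtrl and from 1.18 to 3.76 in siKlf5 cells.

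**Figure D2:**
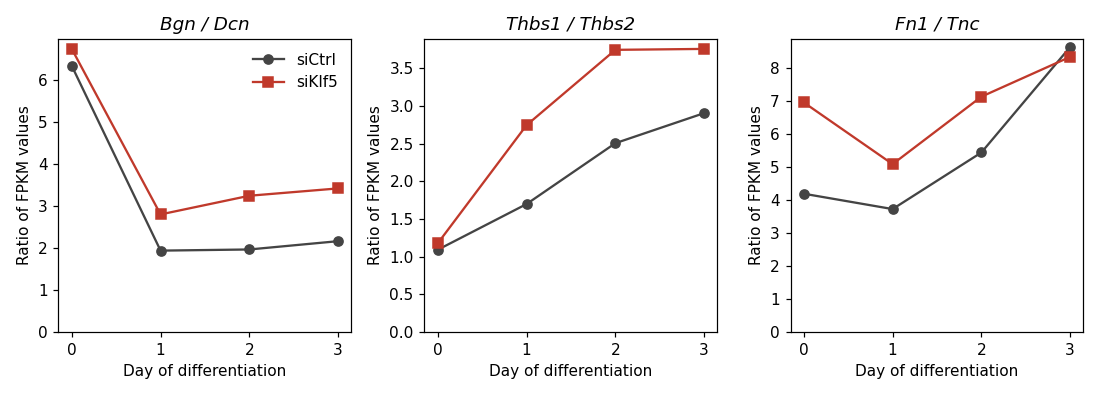
Ratio of the FPKM values of Bgn to Dcn, Thbs1 to Thbs2 and Fn1 to Tnc within each library (vertical axes, from 0) against day of differentiation, in siCtrl (grey circles) and siKlf5 (red squares) cells, with 1 library per point. Bgn to Dcn fell from 6.35 to 2.16 in siCtrl cells, and Thbs1 to Thbs2 rose from 1.09 to 2.90.

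Tenascin C and periostin took opposite courses on day 1. Tnc (NM_011607, chr4:63620819-63708049), which encodes a large glycoprotein of injured and developing tissue, had values of 341.8, 481.3, 319.3 and 203.3 in siCtrl and 192.6, 396.3, 267.4 and 261.7 in siKlf5 cells. Both series peaked on day 1, and day 3 differed from day 0 by -0.15 ± 0.23 (limma adjusted p = 0.662). Postn (NM_001198766, chr3:54165029-54194963), whose product binds integrins and collagen, had values of 24.7, 5.77, 20.5 and 73.6 in siCtrl and 26.5, 14.2, 37.3 and 82.8 in siKlf5 cells. Both series were lowest on day 1, from 23 and 59 reads, and highest on day 3, where the difference from day 0 was 1.61 ± 0.38 (limma adjusted p = 0.0150). The Postn call was lost without the filter (adjusted p = 0.103), without the trend (0.0525) and without day 2 (0.0619). Exons of Fn1 and Tnc overlap exons of Apol7d and 8030451A03Rik on the opposite strand, and reads of both strands were counted, so their reads cannot be told apart.

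**Figure D3:**
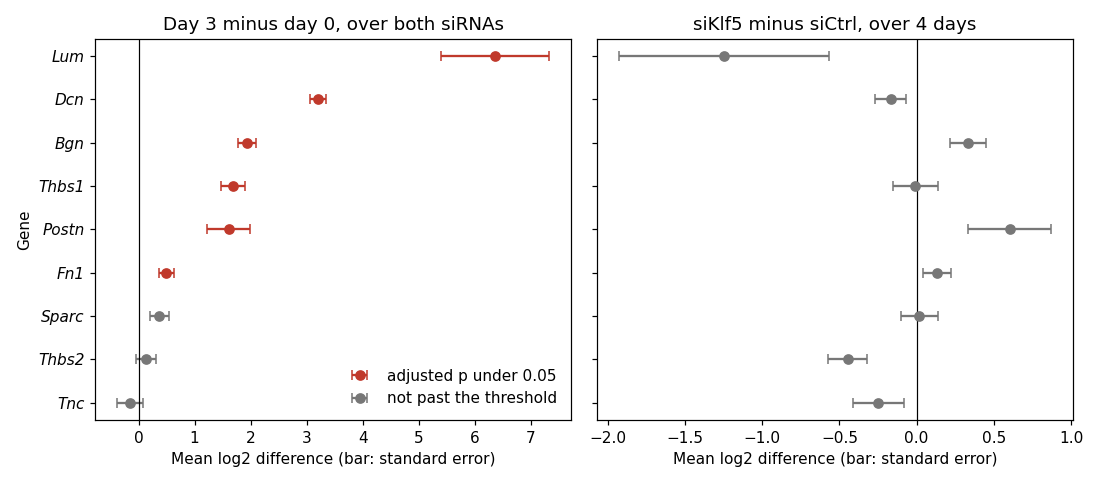
Fitted log2 difference with its standard error (horizontal axes, limma over 8 libraries) for the 9 genes that passed the filter, of day 3 from day 0 (left) and of siKlf5 from siCtrl (right), with calls at an adjusted p under 0.05 in red and the others in grey. On the left 6 genes are red, from Fn1 at 0.50 to Lum at 6.37, and on the right none is.

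The second question was how the knockdown altered these transcripts. No single direction held for the set. Over the 4 days, with the days standing in for replicates, limma called 0 of the 9 genes between siKlf5 and siCtrl, where 0.0629% of all transcripts (9) were called. At an unadjusted p under 0.05 there were 2 of the 9, Bgn and Thbs2, beside 1374 of 14312 (9.60%). Bgn was 0.33 ± 0.11 higher in siKlf5 cells (limma adjusted p = 0.431) and above siCtrl on 3 of 4 days. Thbs2 was -0.45 ± 0.13 relative to siCtrl (limma adjusted p = 0.332) and below it on 3 of 4 days. The other 7 genes had fitted differences between -1.25 ± 0.68 (Lum) and 0.60 ± 0.27 (Postn), with limma adjusted p-values of 0.528 to 0.991. Where a difference changed between days, the fit counts that change as error.

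The days were therefore also read one at a time, as ratios of siKlf5 to siCtrl with no test. On day 0, 3 of the 9 genes were lower by more than 1.5-fold and 0 were higher, beside 11.1% lower and 9.22% higher of all transcripts. On day 1, 2 were lower (Lum and Thbs2) and 2 higher (Bgn and Postn), beside 11.0% and 16.4%. On day 2, 1 was lower (Lum) and 1 higher (Postn), beside 13.0% and 7.69%, and on day 3, 1 was lower (Lum) and 0 were higher, beside 12.5% and 10.7%. The median log2 ratio of the 9 genes was -0.10, -0.00, 0.13 and 0.17 on days 0, 1, 2 and 3, and that of all transcripts was 0.00, 0.03, -0.03 and 0.

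The 3 genes that were lower on day 0 were the thrombospondins and tenascin C. Thbs1 was -0.61 (95% interval -0.83 to -0.40) on the log2 scale, Thbs2 was -0.72 (-0.95 to -0.50) and Tnc was -0.83 (-1.01 to -0.66). On later days the ratio of each climbed. On day 3 Thbs1 was 0.38 (0.25 to 0.48) and Tnc 0.36 (0.18 to 0.53), both higher in siKlf5 cells, and Thbs2 was 0.00 (-0.21 to 0.21). With the change of the ratio per day added as a term, a fit chosen after seeing the data, the slope was 0.36 ± 0.08 for Tnc (limma adjusted p = 0.794), 0.32 ± 0.08 for Thbs1 (limma adjusted p = 0.794) and 0.25 ± 0.08 for Thbs2 (limma adjusted p = 0.918). Of the 9 genes 0 were called and 3 had an unadjusted p under 0.05. Over all transcripts 0.0% were called and 4.85% (694) had an unadjusted p under 0.05.

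**Figure D4:**
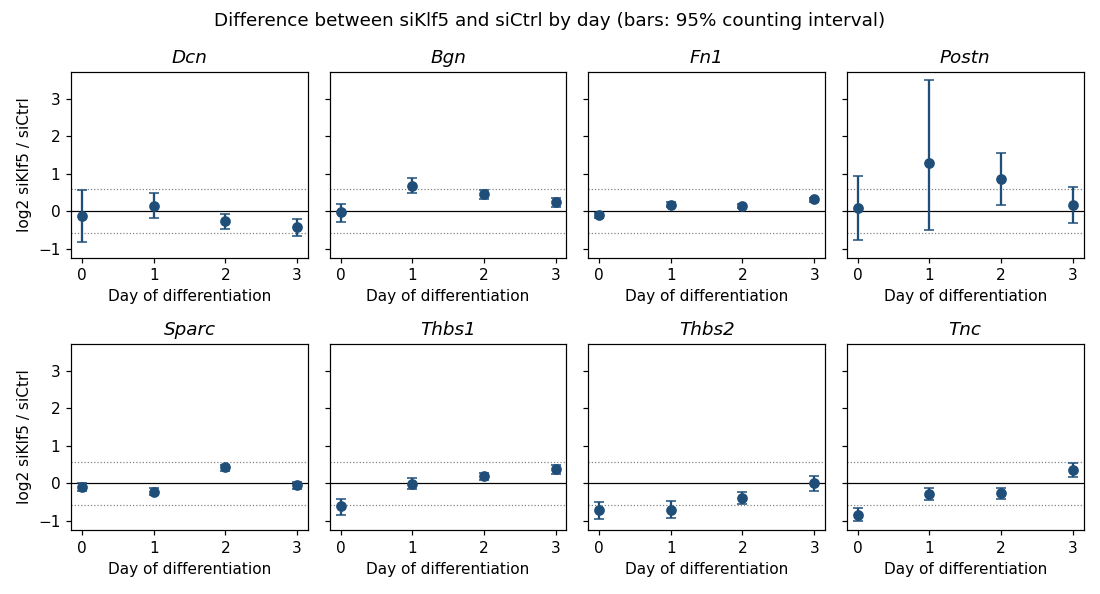
Log2 ratio of siKlf5 to siCtrl (vertical axis, shared) against day of differentiation for the 8 genes other than Lum and Fmod, with bars for the 95% exact counting interval and dotted lines at 1.5-fold. Tnc went from -0.83 on day 0 to 0.36 on day 3, whereas Bgn lay above 0 on days 1 to 3.

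The proteoglycans went different ways between the siRNAs from day 1 on. Bgn was at -0.03 (95% interval -0.27 to 0.19) on day 0 and was higher in siKlf5 cells on day 1 at 0.67 (0.48 to 0.88), day 2 at 0.46 (0.34 to 0.56) and day 3 at 0.24 (0.11 to 0.34). Dcn was 0.14 (-0.19 to 0.49) on day 1, and lower in siKlf5 cells on day 2 at -0.27 (-0.48 to -0.07) and day 3 at -0.43 (-0.65 to -0.21). Lum was lower on days 1, 2 and 3 at -2.21 (-7.16 to 0.74), -1.32 (-3.06 to 0.07) and -1.47 (-4.01 to 0.47), and each of these intervals includes 0. On day 3, 3 of the 5 fibroblast markers past the filter were lower by more than 1.5-fold, beside 12.5% of all transcripts, while Dcn was within 1.5-fold. The 3 markers were Dpt, Cd34 and Pi16, and Tcf21 was at 0 in all libraries. All 7 fibroblast markers summed to 242.8 in siCtrl and 121.8 in siKlf5 cells. The part of these markers in the Dcn and Lum values was not tested.

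For Fn1, Sparc and Postn the ratio also varied between days. Fn1 was -0.10 (-0.17 to -0.04) on day 0 and 0.17 (0.11 to 0.25), 0.13 (0.07 to 0.18) and 0.31 (0.25 to 0.36) on days 1, 2 and 3. Under median-ratio scaling the Fn1 ratio was 0.105 on day 1 and 0.181 on day 2, both just outside these intervals. Fn1 had 45211 reads in siCtrl on day 2, and the part of depth and of the limit on reads per position was not tested. Sparc was -0.23 (-0.32 to -0.12) on day 1 and 0.43 (0.34 to 0.50) on day 2, the day of the deepest siCtrl library, and -0.09 (-0.19 to 0.00) and -0.05 (-0.14 to 0.03) on days 0 and 3. Postn was above siCtrl on 4 of 4 days, at 1.29 (-0.51 to 3.49) on day 1 and 0.86 (0.15 to 1.56) on day 2, where the counts were low. On days 0 and 3 Postn was at 0.10 (-0.77 to 0.95) and 0.17 (-0.31 to 0.64). Only the interval of day 2 leaves out 0. Postn on day 1 and Lum on days 1, 2 and 3 rest on fewer than 100 reads in a library or in both.

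The genes fell into patterns that were compared as Pearson correlations of log2 values over the 8 libraries, which share their days and are given as a description. Dcn correlated most closely with Lum, as given above. Thbs2 and Tnc correlated at 0.82, and Tnc and Postn at -0.79. Among 11583 other transcripts with a mean of at least 10, those most like Dcn were Pi16, Ctxn3 and Unc45b, all at 0.997. Lum was most like Dpep1, Pkia and Irgq at 0.99, and Thbs1 most like Serinc2, Fbxl22 and Itgb6 at 0.99. Thbs2 was most like Mroh1 at 0.98, then Adamts6 and Sorcs2 at 0.95, and Tnc most like Daam1, Mob3a and Cep112 at 0.97. Fn1 was most like Tcf4, Srebf2 and Chd3 at 0.95 to 0.97, Sparc most like Gabarap, Des and Gpc1 at 0.94 to 0.95, and Postn most like E4f1, Ppcdc and Ppp1r3f at 0.95 to 0.97. Like Sparc, Des and Gpc1 were lower in siCtrl on day 2, the deepest library, than on day 1. The part of depth and of the limit on reads per position in this likeness was not tested.

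Other matrix genes were counted in lists of related function. For the siRNA difference limma called 0 genes in any of the 8 lists. The counts for day 3 are to be read against the 12.8% of all transcripts called higher and 17.6% called lower, and the list medians against the median log2 difference of -0.09 over all transcripts. For day 3 against day 0, of the other small leucine-rich proteoglycans 3 of 8 were called higher and 0 lower, with a median of 2.23, namely Ogn (1.96 ± 0.14, limma adjusted p = 7.00e-05), Aspn (3.98 ± 0.35) and Prelp. Tsku and Podnl1, the next most abundant after Ogn, were at -0.35 ± 0.19 and 0.33 ± 0.48 and were not called. Of the large and cell surface proteoglycans 1 of 12 was called higher and 0 lower, with a median of 0.17, and the gene called was Sdc2, a syndecan, at 1.67 ± 0.17, while the more abundant Gpc1 and Sdc4 were at 0.37 ± 0.15 and 0.24 ± 0.13. Of the 22 genes for the synthesis of glycosaminoglycan chains 0 were called higher and 5 lower, with a median of -0.11 that is close to that of all transcripts. The 3 most abundant, Ext1, Ext2 and Hs2st1, were at 0.28 ± 0.12, 0.17 ± 0.11 and 0.20 ± 0.12 and were not called.

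The next counts stand beside the same 12.8% of all transcripts called higher and 17.6% called lower. Of the other matricellular genes 4 of 15 were called higher and 3 lower, with a median of 0.41. The 3 most abundant, Spp1 (osteopontin), Ecm1 and Cyr61, were not among them, at -0.10 ± 0.16, 0.10 ± 0.13 and 0.28 ± 0.26. Of the fibrillar collagens and their processing genes 6 of 13 were called higher and 0 lower, with a median of 0.50, including Col3a1 at 0.87 ± 0.16 but not Serpinh1 at -0.32 ± 0.15 or Col1a2 at 0.15 ± 0.12. Of the elastic fibre genes 4 of 12 were called higher and 2 lower, with a median of 0.77, among them Efemp2 at -0.52 ± 0.12, with Ltbp3 at -0.20 ± 0.14 and Fbln2 at 0.19 ± 0.13 not called. The genes called higher were Fbn1, Emilin1, Mfap2 and Mfap5. Mfap2 was at 0 in both libraries of day 0, and Mfap5 at 0 in every library of days 0 and 1. The fitted sizes of Mfap2 and Mfap5 therefore depend on the pseudocount. Of the receptors 6 of 16 were called higher and 1 lower, with a median of 0.31. Itgb1, an integrin subunit of the main fibronectin receptor, was called at 0.37 ± 0.12, and Itga5 at -0.22 ± 0.11 was not. Of the TGF-beta genes 7 of 15 were called higher and 2 lower, with a median of 0.40, and with Acta2 at 1.53 ± 0.15, Tgfb3 at 1.74 ± 0.11 and Tgfbr2 at 0.88 ± 0.14 all called.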

How the data were processed

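Poly(A) RNA of 8 samples was analysed, 1 per siRNA and day. 6 ChIP samples were left out. Per the labels, read pairs were aligned to mm9 with STAR and counted by the authors on RefSeq transcripts with HOMER, and the deposited FPKM values were scaled with a matrix total of 10000000 per library, with both strands counted and at most 3 reads kept per position. DESeq2-normalized counts, which the labels mention, were not used. The 8 deposited log2 columns were not used.

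Reads were recovered from the steps of the FPKM values times transcript length, and all values checked lay within 0.1 of a whole number. Transcripts with 6 reads were 2.83 to 10.0 times as many as those with 5, so reads were divided by 6 for the exact 95% intervals, which cover counting error only. Ratios used a pseudocount of 0.1 and the filter was a mean of at least 1. limma 3.58.1 (lmFit, eBayes with trend, R 4.3.3) was fitted over 14312 transcripts with 3 residual degrees of freedom, with Benjamini-Hochberg adjustment over all of them and tested on simulated data. The libraries have no replicates, so the p-values measure only the spread between siRNAs and days. Alternatives were other pseudocounts, filters, folds and scalings, eBayes without trend and leaving out a day. Other software was Python 3.11.15 with scipy 1.17.1, pandas 2.3.3 and numpy 2.4.6, and figures were drawn with matplotlib 3.10.9. Promoter sequences were cut from the mm9 genome.

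All 10 genes, the targeted gene, the 3 most abundant genes of each list and the 3 transcripts most like each gene were named, and any others were named after their values were seen. Some items these rules select are not reported here. The genes and lists were chosen with earlier results of these data known.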

Additional observations from a re-analysis of the deposited data

Results flagged for a closer look

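For 4 of the genes the log2 ratio of siKlf5 to siCtrl had counting intervals on opposite sides of 0 on different days. Fn1 was at -0.10 on day 0 and at 0.17, 0.13 and 0.31 on days 1, 2 and 3. Sparc was at -0.23 on day 1 and 0.43 on day 2. Thbs1 was at -0.61 on day 0, 0.20 on day 2 and 0.38 on day 3. Tnc was at -0.83, -0.28 and -0.26 on days 0, 1 and 2 and at 0.36 on day 3. The intervals cover counting error only, with 1 library per siRNA and day. The test of a linear change of the ratio per day gave limma adjusted p-values of 0.794 for Thbs1 and Tnc and 1.00 for Fn1 and Sparc. A turn between single days, such as that of Sparc between days 1 and 2, was not tested. The siCtrl library of day 2 was the deepest, and at most 3 reads were kept per position. Their part in the Fn1 and Sparc values was not tested either.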

How the results depend on the processing

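With 1 library per siRNA and day, counts of genes past a fold have no test. At 2-fold in place of 1.5-fold 0 genes were lower on day 0, 1 was higher and 1 lower on day 1, and 0 were higher on day 2. With at least 100 reads in both libraries, a limit chosen after seeing the data, 1 was higher and 1 lower on day 1, 0 were lower on day 2 and 0 on day 3. With no filter Fmod was added, so 1 was higher on day 3. At 1.5-fold 1 gene, Tnc, was lower on day 3 than on day 0 in siCtrl cells. With no filter limma called 2 genes on day 3 and 1 for any day, and without the trend 3 for any day. Leaving out both libraries of a day gave 0 to 6 for any day, with 0 without day 0. Leaving out a day, the mean siRNA difference of Sparc ran from -0.12 (without day 2) to 0.10 and that of Thbs1 from -0.14 to 0.19 (without day 0), and under upper-quartile scaling that of Thbs1 was 0.0041. None of these differences was called. Limma called 0 of the 9 genes for the siRNA in every alternative run, and 0 to 10 of all transcripts. Median-ratio scaling moved the median of all transcripts on day 3 against day 0 by 0.11 in siCtrl and 0.12 in siKlf5 cells, and upper-quartile scaling by 0.09 and 0.12. The Fn1 ratio of siKlf5 to siCtrl left its counting interval on days 1 and 2 under median-ratio scaling, and on day 2 under upper-quartile scaling. The day 3 difference could not be fitted without day 0 or day 3. The fit itself pairs the siRNAs by day. Depth limits Lum and Postn, whose counts were low, and for Fmod a difference was not detectable at this depth.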
